A study of Mus musculus with 12 samples.

Results

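The genes described here encode the subunits of oxidative phosphorylation, the 5 enzyme complexes of the inner mitochondrial membrane that turn the oxidation of nutrients into ATP. They were taken by symbol from the deposited gene counts: complex I subunits by Nduf with a, b, c, s or v and a digit, complex II by Sdha to Sdhd, complex III by the Uqcr stem with Cyc1, complex IV by Cox4 to Cox8, complex V by the Atp5 stem, and cytochrome c by Cycs. Assembly factors and pseudogenes were left out. Of 86 matching symbols, 80 had at least 120 reads summed over the 12 libraries, out of 24421 genes in the tables. These are 35 genes of complex I, 4 of complex II, 9 of complex III, 14 of complex IV, 15 of complex V and 3 outside the complexes, namely Cycs, Atp5s and Atp5sl. Ndufa4 is counted with complex IV, where its protein is a subunit of cytochrome c oxidase. The member nearest the minimum was Ndufs5 with 175 reads in all, and the nearest symbol outside it was Cox7a1 with 119. Of the Ndufs5 reads 111 came from the EuMyc libraries, so Ndufs5 passed the minimum only through that group. The other 5 symbols outside were Cox4i2 with 27 reads, Ndufa4l2 with 3, and Cox7b2, Cox8b and Cox8c with 0. The subunits that the mitochondrial genome encodes are not analysed here.

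The cells were B220+ splenocytes, taken from 12 mice at 4 to 5 weeks of age, with 3 mice in each of 4 genotypes. B220 is a form of CD45 on the surface of B lineage cells. EuMyc Max KO mice carried the EuMyc transgene and a conditional deletion of Max, and EuMyc mice carried the transgene with intact Max. Max KO mice carried the conditional deletion without the transgene, and WT mice had intact Max and no transgene. The EuMyc transgene puts Myc under the enhancer of the immunoglobulin heavy chain locus, which is active in the B lineage. The study's title describes the transgenic cells as premalignant. Neither the Cre driver nor the deleted part of Max is named in the labels.

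Complex I takes electrons from NADH and complex II takes them from succinate. Both pass them through coenzyme Q to complex III, cytochrome c carries them on to complex IV, and complex IV hands them to oxygen. Complexes I, III and IV pump protons across the inner membrane, and complex V, the ATP synthase, lets them flow back and makes ATP. MYC binds DNA as a dimer with MAX and is known for raising transcripts of mitochondrial and biosynthetic genes, so the design allows the subunit transcripts to be read with and without Max, and with and without a Myc transgene.

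Gene reads per library ran from 17890935 to 18668193 in EuMyc Max KO, from 20221681 to 21671601 in EuMyc, from 14973332 to 17125122 in Max KO and from 16629314 to 17647732 in WT. Levels are given in CPM, reads of a gene scaled to a library of fixed size, adjusted by the TMM method so that libraries of different composition can be compared. Max itself had 108, 104 and 102 CPM in EuMyc Max KO and 126, 127 and 129.97 CPM in EuMyc. In Max KO Max had 102, 102 and 99.8 CPM, against 139, 110.3 and 108 CPM in WT. All 6 libraries with the deletion lay below all 6 with intact Max, the nearest pair by under 1 CPM. Gene counts also take in transcripts that lack a deleted exon, so they do not check the deletion. Myc, counted over the transgene and the endogenous gene together, had 514, 565 and 487 CPM in EuMyc Max KO and 975, 1049 and 1007 CPM in EuMyc. In Max KO Myc had 136, 124 and 119.8 CPM, against 115, 96.0 and 106 CPM in WT. The 9 B cell markers, Cd79a and Cd79b among them, summed to 15204 to 18288 CPM in EuMyc Max KO, 6036 to 7622 in EuMyc, 20397 to 20730 in Max KO and 20733 to 23009 in WT. The 10 markers of pro-B and pre-B cells summed to 158 to 214 CPM in EuMyc Max KO, 1122 to 1174 in EuMyc, 126 to 151 in Max KO and 130 to 149 in WT. Erythroid markers summed to 5756, 3904 and 1112 CPM in EuMyc Max KO, 705 to 833 in EuMyc, 228 to 526 in Max KO and 159 to 407 in WT, with Hbb-bt at 0 in every library and Hba-a1 at 0 in all libraries of EuMyc, Max KO and WT. In bulk samples, fewer cells of a type and less RNA per cell cannot be told apart.

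In WT cells the ATP synthase genes were the most abundant per length of transcript. CPM was divided by the transcript length in kb for this comparison of levels between genes. The median gene of complex V stood at 138 CPM per kb in WT, that of complex IV at 103, that of complex III at 72.7, that of complex II at 69.6 and that of complex I at 41.8. Atp5b, the catalytic beta subunit, had the highest level, 352 CPM per kb in WT. It was followed by Atp5g2, a c subunit of the membrane ring, with 314 CPM per kb, and by Atp5a1, the alpha subunit, with 288. Cox4i1, the common form of cytochrome oxidase subunit 4, stood at 252 CPM per kb in WT, and Ndufs5 and Cox6b2 were at the low end with 0.847 and 0.696. Reads that were ambiguous or mapped to several places were left out, and their part in the low Ndufs5 count was not tested.

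All 77 subunit genes of the 5 complexes were higher in EuMyc than in WT cells. Ndufs5 among them passed the read minimum only through its EuMyc reads, so its call adds no support. With Cycs, 78 of 80 members rose and 2 fell, Atp5s and Atp5sl, in the quasi-likelihood test of edgeR, with Benjamini-Hochberg adjustment over 12878 tested genes and calls at an adjusted p under 0.05. Over all tested genes 36.7% rose and 34.9% fell in this comparison. The median log2 fold change of the 77 subunits was 0.90, or 1.86-fold, against 0.01 over all tested genes. The 3 EuMyc libraries lay above the 3 WT libraries for 76 members and below them for 2, against 39.7% and 37.6% of all tested genes. Scaled by library totals, the median of all genes shifted by -0.10, and with upper-quartile scaling by -0.13, while all 77 subunits stayed above 0 under both. By complex the median log2 fold change was 0.85 for complex I, 0.73 for complex II, 1.11 for complex III, 1.09 for complex IV and 1.004 for complex V.

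Set against the mean of the WT libraries, the median subunit stood at 1.05, 0.999 and 0.990 in the EuMyc Max KO libraries, at 1.81, 1.90 and 1.97 in EuMyc, at 0.814, 0.892 and 0.875 in Max KO and at 1.06, 0.946 and 0.993 in WT. The EuMyc libraries stood apart from the other 9, the Max KO libraries lay below all WT libraries, and the EuMyc Max KO libraries lay among the WT libraries. The reads of the 77 genes made up 0.671%, 0.642% and 0.641% of the scaled gene reads in EuMyc Max KO, 1.19%, 1.28% and 1.27% in EuMyc, 0.548%, 0.580% and 0.568% in Max KO and 0.696%, 0.617% and 0.648% in WT. Beside this, all 9 B cell markers fell and 8 of 10 pro-B and pre-B markers rose in EuMyc against WT, while Kit of the latter fell. Of the markers of other cells, 9 of 9 tested T cell, 6 of 8 NK cell, 8 of 10 monocyte and 9 of 10 dendritic cell genes fell in EuMyc. The monocyte marker Itgam and 4 of 8 tested erythroid genes rose. The part of all these cells in the subunit levels was not tested.

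**Figure D1:**
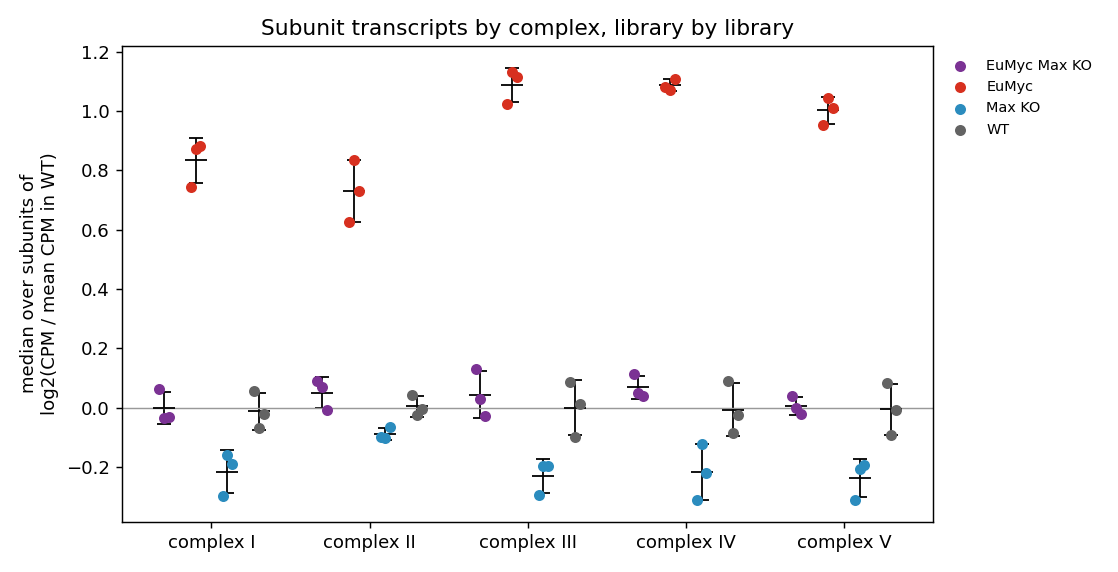
Median over the subunit genes of each complex of the log2 ratio of CPM to the mean WT CPM (y axis), by complex (x axis) and genotype (color), with 1 point per mouse and bars for the mean and SD of 3 mice. In every complex the EuMyc libraries stand above the other 9, and the EuMyc Max KO libraries lie close to 0.

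Within complex I the range in EuMyc against WT ran from 0.34 for Ndufa13 to 1.35 for Ndufb6 on the log2 scale, leaving aside Ndufs5, whose level stayed under 3 CPM. Ndufb6, an accessory subunit of the membrane arm (chr4:40270591-40279421 on mm10), had 16.1, 14.5 and 18.1 CPM in EuMyc Max KO and 37.8, 37.3 and 37.5 CPM in EuMyc. In Max KO Ndufb6 had 11.6, 10.6 and 11.2 CPM, against 14.6, 15.6 and 13.9 CPM in WT. The EuMyc libraries stood clear of the WT libraries (log2 fold change 1.35, SE 0.0942, edgeR adjusted p = 3.92e-08). Ndufa13, also an accessory subunit, had 41.6, 40.1 and 41.4 CPM in EuMyc Max KO and 55.6, 64.1 and 70.6 CPM in EuMyc. In Max KO Ndufa13 had 41.4, 44.4 and 39.5 CPM, against 57.7, 47.3 and 44.9 CPM in WT. One of its EuMyc libraries fell among the WT libraries (log2 fold change 0.34, SE 0.102, edgeR adjusted p = 0.00883), and the call was lost with upper-quartile scaling (adjusted p = 0.0651, edgeR). Ndufa3, a small membrane arm subunit, had 28.2, 26.6 and 29.8 CPM in EuMyc Max KO and 29.3, 26.5 and 37.4 CPM in EuMyc. In Max KO Ndufa3 had 18.1, 27.5 and 26.5 CPM, against 25.2, 21.8 and 20.8 CPM in WT (log2 fold change 0.46, SE 0.160, edgeR adjusted p = 0.0214 for EuMyc against WT). That call was lost without EuMyc replicate 3 (adjusted p = 0.104, edgeR). Ndufs5, an accessory subunit of the membrane arm with few reads, had 0.649, 0.219 and 0.364 CPM in EuMyc Max KO and 0.677, 2.23 and 2.87 CPM in EuMyc. In Max KO Ndufs5 had 0.339, 0.320 and 0.229 CPM, against 0.516, 0.114 and 0.893 CPM in WT (log2 fold change 1.91, SE 0.619, edgeR adjusted p = 0.0139 for EuMyc against WT). Its groups overlapped, and the call was lost without EuMyc replicate 3 (log2 fold change 1.51, adjusted p = 0.0656, edgeR). By module, the median log2 fold change was 0.70 for the 10 genes of the NADH-oxidising N module, 0.67 for the 5 genes of the quinone-reducing Q module and 0.89 for the 20 genes of the membrane arm. The 7 core subunits among these genes, which carry the flavin and the iron-sulfur clusters or shape the quinone site, had a median of 0.69. The 28 accessory subunits had one of 0.88.

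The 4 genes of complex II, the succinate dehydrogenase that also works in the citric acid cycle, ran from 0.26 for Sdha to 1.33 for Sdhd on the log2 scale in EuMyc against WT. Sdhd, a membrane anchor (chr9:50596357-50603812), had 79.7, 79.8 and 70.8 CPM in EuMyc Max KO and 179, 178 and 175 CPM in EuMyc. In Max KO Sdhd had 65.8, 62.8 and 66.5 CPM, against 75.2, 65.98 and 70.0 CPM in WT. Its level in EuMyc was 2.51-fold that in WT (log2 fold change 1.33, SE 0.0634, edgeR adjusted p = 1.7e-09). Sdha, the flavoprotein that oxidises succinate (chr13:74322254-74350280), had 278, 269.9 and 274 CPM in EuMyc Max KO and 304, 345 and 347 CPM in EuMyc. In Max KO Sdha had 291, 287 and 269 CPM, against 289, 273 and 271 CPM in WT. The EuMyc libraries were above the WT libraries by a small margin (log2 fold change 0.26, SE 0.0622, edgeR adjusted p = 0.00233), and the call was lost with upper-quartile scaling (adjusted p = 0.0738, edgeR). Sdhb, the iron-sulfur subunit, and Sdhc, the other anchor, rose by 0.76 and 0.71 on the log2 scale.

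In complex III the largest change was that of Uqcr11, the smallest subunit of the complex (chr10:80402997-80406830), with 27.8, 25.5 and 25.7 CPM in EuMyc Max KO and 72.0, 74.2 and 73.8 CPM in EuMyc. In Max KO Uqcr11 had 18.2, 22.4 and 18.8 CPM, against 23.7, 20.6 and 24.2 CPM in WT. EuMyc stood 3.21-fold above WT (log2 fold change 1.68, SE 0.0900, edgeR adjusted p = 3.99e-09). Cyc1, cytochrome c1, which passes electrons to cytochrome c, had 102, 96.8 and 88.8 CPM in EuMyc Max KO and 189.8, 204 and 211 CPM in EuMyc. In Max KO Cyc1 had 81.4, 91.6 and 74.3 CPM, against 100.1, 87.2 and 92.7 CPM in WT (log2 fold change 1.11, SE 0.0827, edgeR adjusted p = 7.11e-08 for EuMyc against WT). Uqcrh, the hinge protein, had 109, 113 and 113 CPM in EuMyc Max KO and 142, 151 and 157 CPM in EuMyc. In Max KO Uqcrh had 90.6, 95.4 and 111 CPM, against 119.9, 103 and 116 CPM in WT, the smallest change of the complex (log2 fold change 0.41, SE 0.0784, edgeR adjusted p = 0.00037 for EuMyc against WT). Cycs, the soluble carrier that moves between complexes III and IV (chr6:50562563-50566538), lies outside the complexes. It had 58.3, 59.2 and 64.1 CPM in EuMyc Max KO and 169, 170.1 and 168 CPM in EuMyc. In Max KO Cycs had 42.0, 45.1 and 43.8 CPM, against 57.5, 52.2 and 51.6 CPM in WT, and EuMyc exceeded WT 3.14-fold (log2 fold change 1.65, SE 0.0607, edgeR adjusted p = 3.51e-10).

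Cox5a, a matrix-side subunit of cytochrome oxidase, led complex IV among genes of at least 5 CPM, with 85.0, 82.5 and 75.4 CPM in EuMyc Max KO and 175, 182 and 179 CPM in EuMyc. In Max KO Cox5a had 58.6, 66.1 and 66.2 CPM, against 81.8, 61.8 and 72.8 CPM in WT (log2 fold change 1.31, SE 0.0898, edgeR adjusted p = 3.49e-08 for EuMyc against WT). Cox6c had 59.6, 60.8 and 60.7 CPM in EuMyc Max KO and 133, 137 and 139.5 CPM in EuMyc. In Max KO Cox6c had 49.6, 55.7 and 50.2 CPM, against 61.9, 54.4 and 57.4 CPM in WT, with all EuMyc libraries above all others (log2 fold change 1.24, SE 0.0633, edgeR adjusted p = 2.85e-09). At the other end stood Cox7a2l, which joins complexes III and IV into supercomplexes (chr17:83501918-83517330). It had 192, 186 and 209 CPM in EuMyc Max KO and 247, 254 and 272 CPM in EuMyc. In Max KO Cox7a2l had 191, 193 and 199.5 CPM, against 234, 203 and 224 CPM in WT. EuMyc exceeded WT by 0.23 on the log2 scale (SE 0.0650, edgeR adjusted p = 0.00711), and this call was lost with upper-quartile scaling (adjusted p = 0.206, edgeR) and with library totals (adjusted p = 0.0883, edgeR).

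In complex V all genes of the catalytic head and of the membrane part rose in EuMyc. Atp5b (chr10:128083273-128090391) had 732, 684 and 669 CPM in EuMyc Max KO and 1679, 1817 and 1746 CPM in EuMyc. In Max KO Atp5b had 531, 542 and 543 CPM, against 736, 626 and 663 CPM in WT, and EuMyc stood 2.59-fold above WT (log2 fold change 1.37, SE 0.0706, edgeR adjusted p = 2.99e-09). Atp5k, the e subunit at which synthase dimers meet, had 26.9, 25.4 and 22.6 CPM in EuMyc Max KO and 69.0, 62.3 and 62.2 CPM in EuMyc. In Max KO Atp5k had 15.3, 21.6 and 23.8 CPM, against 26.9, 22.7 and 26.7 CPM in WT (log2 fold change 1.34, SE 0.136, edgeR adjusted p = 1.43e-06). Atp5e, the epsilon subunit of the rotor, had the smallest change of the complex, with 95.8, 95.3 and 94.0 CPM in EuMyc Max KO and 152, 171 and 166 CPM in EuMyc. In Max KO Atp5e had 84.3, 92.2 and 96.0 CPM, against 119, 99.4 and 108 CPM in WT (log2 fold change 0.58, SE 0.0719, edgeR adjusted p = 8.48e-06 for EuMyc against WT). The 5 genes of the F1 head had a median log2 fold change of 0.78, and the 10 genes of the membrane part and stalk had one of 1.06. Atp5l, the g subunit, is read with less certainty, since only 15.2% of the 50-base stretches of its transcripts occur in no other gene's transcript. Reads mapping to several places were not assigned to genes. The same limit holds to a lesser degree for other members, of which 18 in all had under 80% such stretches. Among them were Uqcrb (56.6%), Cox5a (68.0%), Ndufb6 (68.4%), Ndufa13 (71.5%) and Ndufa12 (73.8%). The level of Atp5l was 82.4, 81.2 and 79.96 CPM in EuMyc Max KO and 126, 134 and 131 CPM in EuMyc. In Max KO Atp5l had 62.5, 69.5 and 73.7 CPM, against 91.7, 79.1 and 80.1 CPM in WT (log2 fold change 0.64, SE 0.0714, edgeR adjusted p = 3.18e-06 for EuMyc against WT).

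The 2 members that fell in EuMyc carry an Atp5 symbol without being subunits of the synthase. Atp5s encodes coupling factor B, and had 7.25, 8.06 and 9.77 CPM in EuMyc Max KO and 4.21, 4.89 and 6.01 CPM in EuMyc. In Max KO Atp5s had 8.47, 11.95 and 10.5 CPM, against 7.85, 8.98 and 9.65 CPM in WT. All 3 EuMyc libraries were below all 3 WT libraries (log2 fold change -0.81, SE 0.186, edgeR adjusted p = 0.00162). Atp5sl, named for its likeness to Atp5s and known in human cells as an assembly factor of complex I, had 93.6, 110.2 and 107 CPM in EuMyc Max KO and 86.8, 79.997 and 93.9 CPM in EuMyc. In Max KO Atp5sl had 116, 114 and 115 CPM, against 118, 128 and 113 CPM in WT. Here too no EuMyc library reached a WT library (log2 fold change -0.46, SE 0.0748, edgeR adjusted p = 0.000101). Atp5s lies outside the rule for genes given in full and was added after its values were seen.

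**Figure D2:**
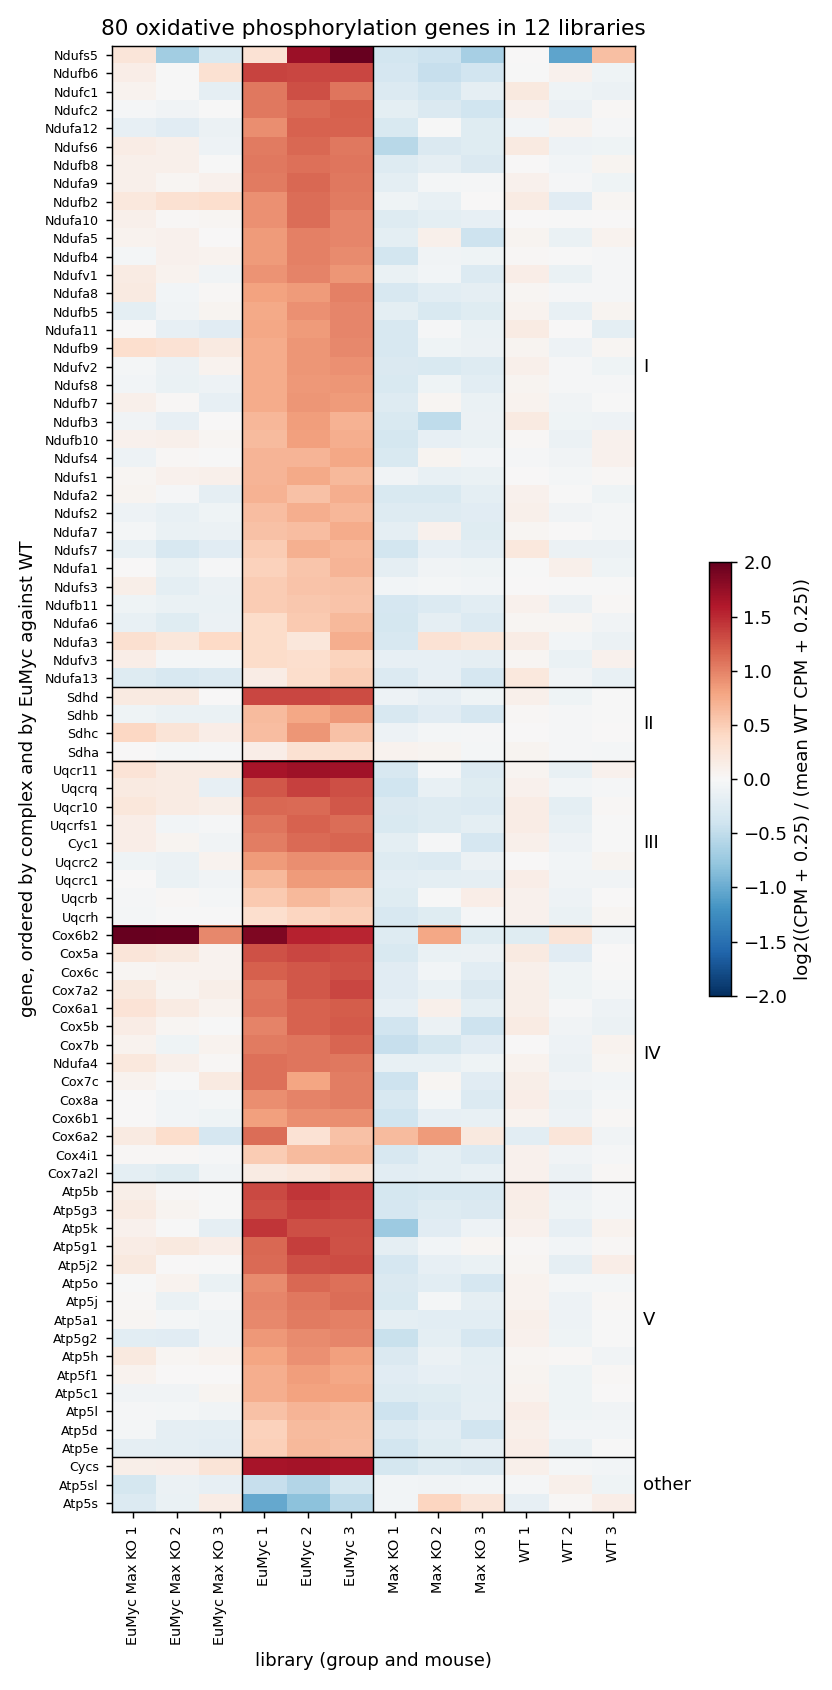
Log2 ratio of each gene's level to its mean in WT, after adding 0.25 CPM to both, in the 12 libraries (columns, grouped by genotype) for the 80 genes (rows, grouped by complex and ordered by EuMyc against WT); colors end at -2 and 2. The 3 EuMyc columns are red for nearly all genes, Atp5s and Atp5sl at the foot are blue there, and Cox6b2 is red in EuMyc and in EuMyc Max KO.

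**Figure D3:**
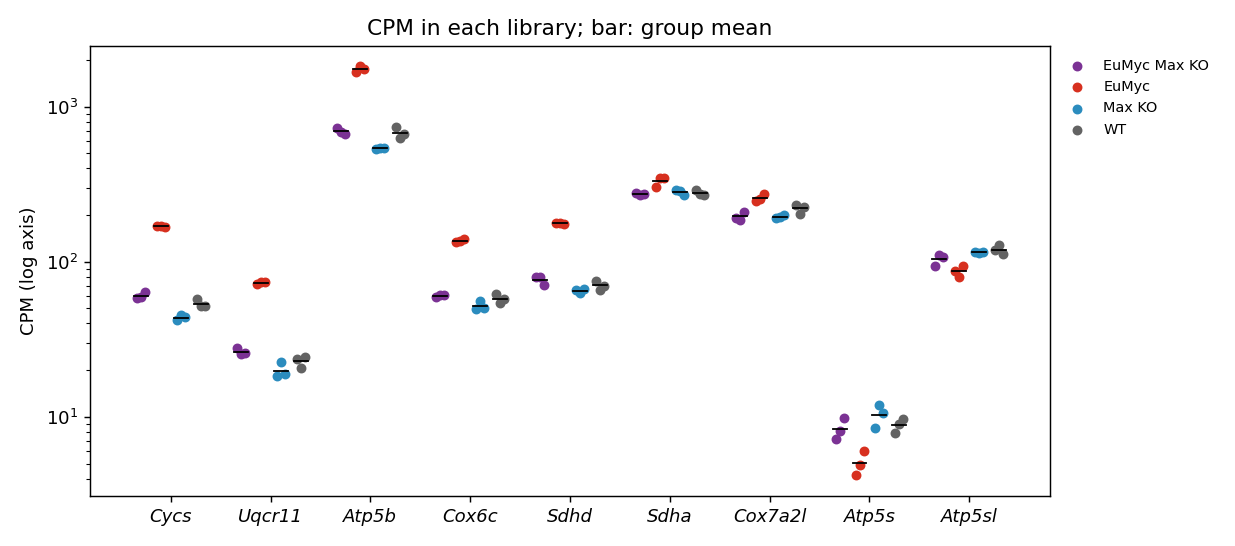
CPM on a log axis (y) of 9 of the genes described in the text (x) in each library, with the genotype by color and bars at the mean of 3 mice. For Cycs, Uqcr11, Atp5b, Cox6c and Sdhd the EuMyc points stand above the other 3 genotypes, for Sdha and Cox7a2l they stand close to them, and for Atp5s and Atp5sl they stand below.

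Promoter sequences were read for the members from RefSeq (GRCm38.p6), 250 bases before to 50 after an annotated start, to show whether genes that rose together share binding motifs there. Of 80 members 67 matched, 6 of them with several starts. The 4 printed here, chosen after their values were seen, are Atp5g1 and Atp5g3, c subunit genes with an E-box, and Uqcr11 and Cox7a2l, with the largest and the smallest log2 fold change in EuMyc against WT among the subunits of at least 5 CPM on average (low Ndufs5 and Cox6b2 had larger ones). Capitals mark CACGTG, the E-box that MYC and MAX bind, in the first 2, and CCGGAAG, a letter form of sites for ETS factors such as GABPA, in the third. The fourth holds no motif searched.
Atp5g1, chr11:96075582-96075881, minus strand: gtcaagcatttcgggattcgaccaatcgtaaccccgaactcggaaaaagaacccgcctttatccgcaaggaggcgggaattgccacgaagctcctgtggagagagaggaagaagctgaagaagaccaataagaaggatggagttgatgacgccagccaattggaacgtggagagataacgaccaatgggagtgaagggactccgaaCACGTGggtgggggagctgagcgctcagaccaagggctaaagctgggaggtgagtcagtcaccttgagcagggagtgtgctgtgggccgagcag
Atp5g3, chr2:73911277-73911576, minus strand: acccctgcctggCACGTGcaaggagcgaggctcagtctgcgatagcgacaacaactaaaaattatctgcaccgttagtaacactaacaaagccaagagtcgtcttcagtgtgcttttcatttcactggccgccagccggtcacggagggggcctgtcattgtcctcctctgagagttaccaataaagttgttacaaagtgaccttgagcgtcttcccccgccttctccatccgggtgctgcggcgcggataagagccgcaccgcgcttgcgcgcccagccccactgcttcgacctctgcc
Uqcr11, chr10:80406772-80407071, minus strand: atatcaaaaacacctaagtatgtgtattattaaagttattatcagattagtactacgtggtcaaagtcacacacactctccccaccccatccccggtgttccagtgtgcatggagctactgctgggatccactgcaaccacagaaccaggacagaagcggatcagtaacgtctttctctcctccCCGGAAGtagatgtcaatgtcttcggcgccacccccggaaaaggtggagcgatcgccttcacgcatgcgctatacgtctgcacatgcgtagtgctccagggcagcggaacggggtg
Cox7a2l, chr17:83514284-83514583, minus strand: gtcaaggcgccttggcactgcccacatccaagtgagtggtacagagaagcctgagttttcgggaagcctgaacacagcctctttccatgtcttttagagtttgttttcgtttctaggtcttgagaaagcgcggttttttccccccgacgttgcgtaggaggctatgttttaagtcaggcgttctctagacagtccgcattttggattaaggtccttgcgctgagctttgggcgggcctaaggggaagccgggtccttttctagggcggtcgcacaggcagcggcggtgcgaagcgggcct
The E-box of Atp5g1 begins 44 bases before the start and that of Atp5g3 238 bases before it, and the CCGGAAG of Uqcr11 begins 66 bases before. On both strands, CACGTG occurred in 7 of 69 promoters of subunit genes (10.1%), against 9.97% of the promoters of tested genes and 7.15% of all 32851 in the table. Subunit genes with the E-box had a median log2 fold change of 0.85 in EuMyc against WT (6 genes) and those without it one of 0.95 (58 genes). CCGGAAG occurred in 23.2% of the subunit promoters against 17.1% of those of tested genes. The palindromic letter form of the NRF1 site occurred in 7.25% against 2.06%, and AAGATGGC, one of the YY1 site, in 14.5% against 4.41%. CCGGAAG and AAGATGGC can share the letters AAG. These matches describe letters in a window of 300 bases and are no evidence of binding, and the list of motifs was drawn up with the fold changes known.

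Subunit transcripts were lower in transgenic cells without Max than in those with it. In EuMyc Max KO against EuMyc, 76 of 80 members fell and 2 rose by the same edgeR test, against 36.1% and 37.6% of all tested genes. The members that rose were Atp5s and Atp5sl, and Ndufa3 and Cox6b2 did not pass the test. Ndufs5, a member only through its EuMyc reads, was among those that fell. The median log2 fold change of the 77 subunits was -0.91, a level 0.533 times that in EuMyc, against 0.03 over all tested genes. By complex the medians were -0.84 for complex I, -0.66 for complex II, -1.01 for complex III, -0.98 for complex IV and -1.09 for complex V. All 3 EuMyc Max KO libraries lay below all 3 EuMyc libraries for 75 members and above them for 1, against 37.9% and 38.0% of all tested genes. The comparison shares the EuMyc libraries with that of EuMyc against WT, so the opposite directions of both are not independent.

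Uqcr11 and Cycs both fell by 1.48 on the log2 scale in EuMyc Max KO against EuMyc (edgeR adjusted p = 1.27e-08 and edgeR adjusted p = 6.97e-10), on the library values given above. Atp5k fell by 1.37 (SE 0.136, edgeR adjusted p = 1.26e-06) and Atp5b by 1.33 (SE 0.0705, edgeR adjusted p = 4.74e-09) in the same comparison. Ndufa12, an accessory subunit of the N module, had 29.1, 27.8 and 30.1 CPM in EuMyc Max KO and 62.6, 74.5 and 74.4 CPM in EuMyc. In Max KO Ndufa12 had 26.5, 32.3 and 27.4 CPM, against 31.5, 34.1 and 32.2 CPM in WT. It fell by 1.28 in EuMyc Max KO against EuMyc (SE 0.0922, edgeR adjusted p = 5.87e-08). The smallest decreases of their complexes were those of Sdha (-0.28), Cox7a2l (-0.40) and Uqcrh (-0.43). Atp5s rose (log2 fold change 0.73, SE 0.186, edgeR adjusted p = 0.00314), with all 3 EuMyc Max KO libraries above all 3 EuMyc libraries. Atp5sl rose too (log2 fold change 0.25, SE 0.0748, edgeR adjusted p = 0.00789), although its groups overlapped in 1 library. In the same comparison 7 of 9 B cell, 9 of 10 monocyte, 9 of 9 tested T cell and 8 of 8 NK cell markers rose. So did 9 of 10 dendritic cell, 5 of 5 tested neutrophil and 7 of 8 tested erythroid markers, and 6 of 10 pro-B and pre-B markers fell. Against their lists, the B cell marker Cd79a and the monocyte marker Itgam fell, and Kit of the pro-B and pre-B markers rose. Neutrophil markers summed to 254, 234 and 19.2 CPM in the EuMyc Max KO libraries and 9.25 to 14.6 in EuMyc. The erythroid and neutrophil sums were highest in EuMyc Max KO replicates 1 and 2. With 1 or the other of these left out, the number of members that fell stayed between 75 and 76. Each such fit kept the other of these libraries, so it cannot show what part such cells had. The part of these other cells in the subunit levels was not tested.

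**Figure D4:**
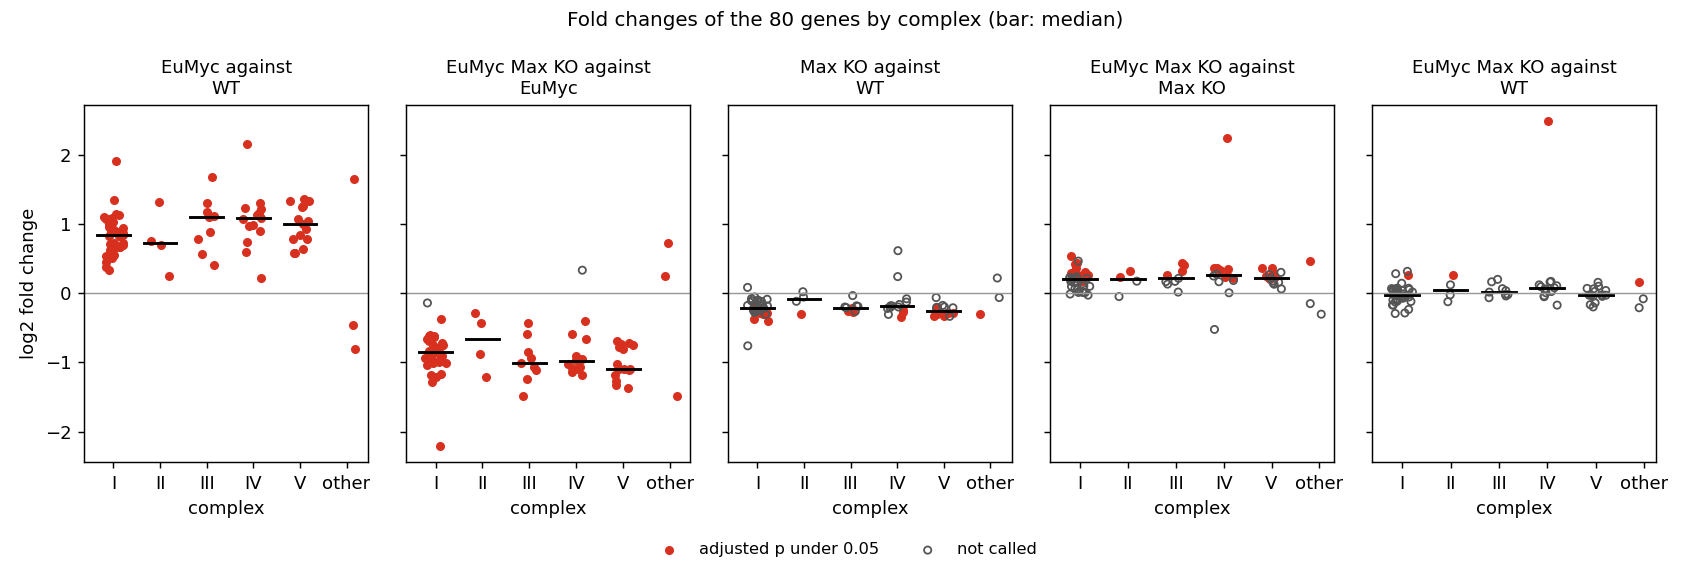
Log2 fold change (y axis) of each of the 80 genes by complex (x axis) in 5 comparisons (panels), with filled points for an adjusted p under 0.05 in edgeR and open points for genes not called; bars are medians. Nearly all points are above 0 for EuMyc against WT and below 0 for EuMyc Max KO against EuMyc, and lie close to 0 in the other 3 panels.

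In cells without the transgene, subunit transcripts were slightly lower without Max. In Max KO against WT, 27 of 80 members fell and 0 rose, against 7.74% and 7.27% of all tested genes. With library totals, which put 1130 of all tested genes higher and 719 lower in place of 936 higher and 997 lower, 18 members fell. At an unadjusted p under 0.05, edgeR gave 1 member higher, and DESeq2 called 0 higher and gave 0 at that unadjusted p. The median of the 77 subunits was -0.21, a level 0.867 times that in WT, against -0.00323 over all tested genes, and 73 of the 77 had a negative log2 fold change. All 3 Max KO libraries lay below all 3 WT libraries for 46 members, against 20.1% of all tested genes, and above them for 0, against 18.0%. Complex V had 9 genes that fell of 15, complex I 10 of 35, complexes III and IV 3 each, of 9 and of 14, and complex II 1 of 4, and the medians were -0.26, -0.21, -0.21, -0.19 and -0.08 in that order. The number of members that fell was 4 without WT replicate 1 and 6 without Max KO replicate 1. It was 15 without Max KO replicate 2 and likewise 15 without WT replicate 3.

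The members called lower in every one of the 12 fits that leave out a library were Sdhb, Cycs and Atp5b. Sdhb had 87.8, 85.2 and 85.5 CPM in EuMyc Max KO and 145, 161 and 172 CPM in EuMyc. In Max KO Sdhb had 75.1, 79.6 and 74.0 CPM, against 95.4, 92.0 and 93.6 CPM in WT (log2 fold change -0.30, SE 0.0623, edgeR adjusted p = 0.0088 for Max KO against WT). Cycs stood at 43.6 ± 1.53 CPM in Max KO and 53.7 ± 3.25 in WT (SD, n = 3 each; log2 fold change -0.30, SE 0.0608, edgeR adjusted p = 0.00745). Atp5b stood at 539 ± 6.70 CPM in Max KO and 675 ± 56.2 in WT (SD, n = 3 each; log2 fold change -0.32, SE 0.0696, edgeR adjusted p = 0.00969). For all 3 genes the groups did not overlap. Ndufb6 showed the largest decrease among genes of at least 5 CPM (log2 fold change -0.40, SE 0.0970, edgeR adjusted p = 0.0179), lost without Max KO replicate 2, WT replicate 1 or WT replicate 2 (adjusted p up to 0.0626, edgeR). Cox7b, the X-linked subunit 7B, had 62.7, 56.2 and 62.7 CPM in EuMyc Max KO and 123, 125 and 133 CPM in EuMyc. In Max KO Cox7b had 43.3, 46.5 and 50.5 CPM, against 60.1, 55.5 and 62.7 CPM in WT (log2 fold change -0.35, SE 0.0747, edgeR adjusted p = 0.0102 for Max KO against WT), and leaving out Max KO replicate 1 ended its call (adjusted p = 0.0537, edgeR). Uqcr10, a small subunit of complex III, had 37.0, 35.6 and 34.2 CPM in EuMyc Max KO and 70.4, 70.0 and 75.3 CPM in EuMyc. In Max KO Uqcr10 had 25.8, 26.5 and 26.3 CPM, against 35.1, 27.5 and 32.3 CPM in WT (log2 fold change -0.27, SE 0.0851, edgeR adjusted p = 0.0485 for Max KO against WT), and its call was lost in 9 of the 12 fits that leave out a library (adjusted p up to 0.19, edgeR). The complex III gene nearest to 0 was Uqcrb, the subunit that helps form the quinone site, with 39.9, 41.6 and 39.6 CPM in EuMyc Max KO and 58.3, 63.6 and 59.3 CPM in EuMyc. In Max KO Uqcrb had 34.3, 40.4 and 44.7 CPM, against 43.0, 38.0 and 41.0 CPM in WT (log2 fold change -0.03, SE 0.0901, edgeR adjusted p = 0.849 for Max KO against WT). Of the 77 subunits Sdha (0.02), Ndufa3 (0.09), Cox6b2 (0.24) and Cox6a2 (0.62) had positive values, and none of these passed the test. In Max KO against WT, 3 of 10 monocyte, 2 of 10 dendritic cell and 1 of 9 tested T cell markers rose, and 2 of 9 B cell markers fell. Monocyte markers summed to 2318 to 3309 CPM in Max KO and 1443 to 1770 in WT. The part of these cells in the small differences of the subunits was not tested.

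The transgene without Max was read by setting EuMyc Max KO against Max KO. Here 33 of 80 members rose and 0 fell, against 10.7% and 3.69% of all tested genes. With upper-quartile scaling, which put 1215 of all tested genes higher and 695 lower in place of 1378 higher and 475 lower, 24 members rose. For members lower, edgeR gave 0 also at an unadjusted p under 0.05, and DESeq2 called 0. The median of the 77 subunits was 0.22, or 1.16-fold, with medians of 0.21, 0.21, 0.22, 0.26 and 0.22 for complexes I to V. All 3 libraries of EuMyc Max KO lay above all 3 of Max KO for 46 members and below them for 1, against 17.2% and 15.1% of all tested genes. The number that rose was 9 without Max KO replicate 1, 14 without Max KO replicate 3, 14 without EuMyc Max KO replicate 1, 16 without EuMyc Max KO replicate 2, and 13 when only these 6 libraries entered the fit. Ndufb6, Ndufb8, Ndufb9, Uqcr10, Cox7b, Atp5b, Atp5g3 and Cycs were called in all 12 fits that leave out a library. Cycs had 58.3, 59.2 and 64.1 CPM in EuMyc Max KO against 42.0, 45.1 and 43.8 in Max KO (log2 fold change 0.47, SE 0.0606, edgeR adjusted p = 0.000554). Atp5b had 732, 684 and 669 CPM in EuMyc Max KO against 531, 542 and 543 in Max KO (log2 fold change 0.37, SE 0.0696, edgeR adjusted p = 0.00414). Both genes were apart in all libraries. In this comparison 6 of 8 tested erythroid and 6 of 10 pro-B and pre-B markers rose. In it 2 of 9 B cell and 2 of 10 dendritic cell markers fell, and the part of these cells was not tested.

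Transgenic cells without Max stood close to WT cells in these transcripts. In EuMyc Max KO against WT, 4 of 80 members rose (Sdhc, Ndufb9, Cox6b2 and Cycs) and 0 fell, against 17.0% and 10.8% of all tested genes. For members lower, edgeR gave 6 at an unadjusted p under 0.05, and DESeq2 called 3. The median of the 77 subunits was 0.01, or -0.03 with upper-quartile scaling, and 75 of the 77 had a log2 fold change within 0.3 of 0, with a median SE of 0.0786 per gene. All 3 libraries were apart upward for 10 members and downward for 9, against 22.2% and 19.6% of all tested genes. Sdhc had 78.4, 70.4 and 64.9 CPM in EuMyc Max KO against 59.5, 58.0 and 59.3 in WT (log2 fold change 0.27, SE 0.0865, edgeR adjusted p = 0.0325), and Ndufb9, an accessory subunit of complex I, had 50.3, 48.4 and 44.7 CPM in EuMyc Max KO against 41.1, 37.1 and 40.6 in WT (log2 fold change 0.27, SE 0.0852, edgeR adjusted p = 0.0323). Each of these calls was lost without any 1 of 6 libraries, with an adjusted p of up to 0.14 for Sdhc and 0.121 for Ndufb9 in edgeR. Cycs was called by a narrow margin (log2 fold change 0.17, SE 0.0602, edgeR adjusted p = 0.0498), and that call was lost in 11 of the 12 fits that leave out a library (adjusted p up to 0.166, edgeR). Beside this, 6 of 9 B cell markers fell and 6 of 10 pro-B and pre-B markers rose. Of the markers of other cells, 8 of 10 monocyte, 5 of 5 tested neutrophil, 8 of 8 tested erythroid and 3 of 9 tested T cell genes rose. So did 1 of 8 NK cell and 1 of 10 dendritic cell genes, and 1 dendritic cell gene fell. The part of these cells was not tested.

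The change with the transgene was smaller without Max for most members. This was tested as the interaction, the log2 fold change of EuMyc Max KO against Max KO minus that of EuMyc against WT. It was negative and called for 72 of 80 members and positive and called for 1, Atp5sl, against 27.9% and 27.8% of all tested genes. The median of the 77 subunits was -0.71, and by complex it was -0.65, -0.48, -0.74, -0.79 and -0.82 for complexes I to V. By smallest p the leading members were Cycs (-1.18, SE 0.0850, edgeR adjusted p = 3.6e-07), Sdhd (-1.09, SE 0.0892, edgeR adjusted p = 8.08e-07), Cox6c (-1.02, SE 0.0893, edgeR adjusted p = 1.38e-06), Atp5g3 (-0.98, SE 0.0918, edgeR adjusted p = 2.34e-06) and Atp5g1 (-1.05, SE 0.0993, edgeR adjusted p = 2.45e-06). The 7 members not called were Ndufv3, Ndufa3, Ndufs5, Uqcrh, Cox6b2, Cox7a2l and Atp5s, with values between -1.45 and 0.51. The Atp5sl value was 0.31 (SE 0.106, edgeR adjusted p = 0.0228), and its call was lost without EuMyc Max KO replicate 2, EuMyc replicate 2 or WT replicate 2 (adjusted p up to 0.0642, edgeR). The Myc transcript, of transgene and endogenous gene together, had an interaction of -1.21 (SE 0.114, edgeR adjusted p = 2.33e-06). Its level in EuMyc Max KO was 0.517 times that in EuMyc, and the part of Myc level in the subunit changes was not tested.

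Several subunits are encoded by a pair or trio of genes, of which one serves most tissues and others serve muscle, lung or testis. Among the c subunit genes, which encode the same mature protein, Atp5g1 had 65.1, 66.99 and 64.3 CPM in EuMyc Max KO and 129.97, 153 and 141 CPM in EuMyc. In Max KO Atp5g1 had 51.8, 56.6 and 60.1 CPM, against 59.7, 56.7 and 59.3 CPM in WT. Atp5g3 had 141, 130.41 and 125 CPM in EuMyc Max KO and 307, 328 and 320.1 CPM in EuMyc. In Max KO Atp5g3 had 99.4, 105 and 103 CPM, against 137, 118 and 122 CPM in WT, and Atp5g2, of whose stretches 61.7% are unique, had 159, 158 and 175 CPM in EuMyc Max KO and 334, 355 and 364 CPM in EuMyc. In Max KO Atp5g2 had 135, 159.9 and 145 CPM, against 195, 172 and 183 CPM in WT. All 3 rose in EuMyc, by 1.27, 1.34 and 0.93 on the log2 scale in the order given. Of the reads of the 3 genes, Atp5g3 took 36.5% ± 2.17 in EuMyc Max KO, 39.3% ± 0.530 in EuMyc, 33.6% ± 1.02 in Max KO and 34.1% ± 0.712 in WT (SD, n = 3 each). Atp5g2 took 45.4% ± 2.40 in EuMyc Max KO, 43.3% ± 0.779 in EuMyc, 48.0% ± 1.47 in Max KO and 49.96% ± 0.306 in WT (SD, n = 3 each). The EuMyc shares did not overlap with those of WT for either gene.

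Of subunit 6B, the common Cox6b1 had 89.6, 86.0 and 84.0 CPM in EuMyc Max KO and 159, 170.0 and 171 CPM in EuMyc. In Max KO Cox6b1 had 67.9, 79.7 and 80.4 CPM, against 93.5, 83.4 and 91.4 CPM in WT. Its testis form Cox6b2 (chr7:4751792-4753094) had 3.41, 2.25 and 0.988 CPM in EuMyc Max KO and 2.08, 1.59 and 1.57 CPM in EuMyc. In Max KO Cox6b2 had 0.282, 0.831 and 0.286 CPM, against 0.287, 0.512 and 0.357 CPM in WT, and its level in EuMyc Max KO did not overlap with that of WT (log2 fold change 2.50, SE 0.521, edgeR adjusted p = 0.00425). It also rose in EuMyc against WT (log2 fold change 2.16, SE 0.525, edgeR adjusted p = 0.00239), while the difference of EuMyc Max KO and EuMyc did not pass the test (log2 fold change 0.34, SE 0.436, edgeR adjusted p = 0.498). The next highest member in EuMyc Max KO against WT was Ndufa3 at 0.32, which did not pass the test. The Cox6b2 values in EuMyc Max KO were 3.41 and 2.25 CPM in the 2 libraries with the highest erythroid and neutrophil sums and 0.988 in the third. In EuMyc, with erythroid sums of 705 to 833 CPM and neutrophil sums of 9.25 to 14.6, Cox6b2 had 2.08, 1.59 and 1.57 CPM. The part of these cells in the Cox6b2 level was not tested. Cox6a2, the muscle form of subunit 6A, had 3.68, 4.17 and 2.495 CPM in EuMyc Max KO and 7.30, 3.99 and 4.96 CPM in EuMyc. In Max KO Cox6a2 had 5.14, 6.01 and 3.71 CPM, against 2.75, 3.86 and 3.04 CPM in WT (log2 fold change 0.75, SE 0.281, edgeR adjusted p = 0.0285 for EuMyc against WT), a call lost without EuMyc replicate 1 (adjusted p = 0.158, edgeR). Its common counterpart Cox6a1 had 114, 105 and 98.6 CPM in EuMyc Max KO and 198, 213 and 217 CPM in EuMyc. In Max KO Cox6a1 had 83.5, 101 and 82.1 CPM, against 102, 92.1 and 87.3 CPM in WT (log2 fold change 1.16, SE 0.0873, edgeR adjusted p = 7.83e-08). Cox7a2 had 46.6, 42.2 and 43.9 CPM in EuMyc Max KO and 85.8, 96.0 and 102 CPM in EuMyc. In Max KO Cox7a2 had 34.7, 37.0 and 33.0 CPM, against 44.0, 38.4 and 39.4 CPM in WT (log2 fold change 1.22, SE 0.0824, edgeR adjusted p = 2.98e-08). Cox7a1, its muscle form and just outside the count minimum, had 0.325, 0.164 and 0.312 CPM in EuMyc Max KO and 0.919, 1.65 and 1.04 CPM in EuMyc. In Max KO Cox7a1 had 0.339, 0.447 and 0.229 CPM, against 0.344, 0.455 and 0.179 CPM in WT (log2 fold change 1.85, SE 0.441, edgeR adjusted p = 0.00208 for EuMyc against WT). Of its 119 reads 70 came from EuMyc, the group where it was high. Cox4i1 had 194, 193 and 186 CPM in EuMyc Max KO and 271, 296 and 298 CPM in EuMyc. In Max KO Cox4i1 had 152, 166 and 156 CPM, against 201, 181 and 187 CPM in WT (log2 fold change 0.60, SE 0.0591, edgeR adjusted p = 9.66e-07 for EuMyc against WT), while its lung form Cox4i2 did not exceed 0.565 CPM in any library. Cox8a had 116, 111 and 112 CPM in EuMyc Max KO and 221, 230.1 and 234 CPM in EuMyc. In Max KO Cox8a had 92.4, 113 and 95.6 CPM, against 127, 107 and 113 CPM in WT, and no reads of Cox8b, Cox8c or Cox7b2 were counted. Ndufa4 had 72.5, 67.04 and 63.5 CPM in EuMyc Max KO and 135, 132 and 130.44 CPM in EuMyc. In Max KO Ndufa4 had 56.3, 56.8 and 59.3 CPM, against 66.02, 58.0 and 64.1 CPM in WT (log2 fold change 1.08, SE 0.0650, edgeR adjusted p = 1.06e-08 for EuMyc against WT), while its paralogue Ndufa4l2 had 3 reads in all.

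Complex V took a larger share of the summed level of the subunits in EuMyc than in the other 3 genotypes, and complexes I and II took smaller ones. Of the summed CPM per kb of the 77 genes, complex V took 36.1% ± 0.0195 in EuMyc Max KO, 39.1% ± 0.409 in EuMyc, 35.6% ± 0.196 in Max KO and 36.8% ± 0.213 in WT (SD, n = 3 each). Complex I took 24.1% ± 0.120 in EuMyc Max KO, 22.2% ± 0.208 in EuMyc, 24.7% ± 0.0400 in Max KO and 24.4% ± 0.498 in WT. Complex II took 3.94% ± 0.0537 in EuMyc Max KO, 3.49% ± 0.0295 in EuMyc, 4.21% ± 0.212 in Max KO and 3.91% ± 0.109 in WT. For complexes I, II and V the EuMyc libraries lay apart from the other 9. The sum of complex V leans on Atp5b, the gene of highest level, with 912 CPM per kb in EuMyc and 352 in WT. By median log2 fold change in EuMyc against WT, complex V (1.004) did not exceed complexes III (1.11) and IV (1.09). Complex III stayed between 11.1% and 12.001% and complex IV between 23.4% and 24.6% in all 12 libraries. The size of these differences depended on the division by length. In EuMyc against WT the log2 ratio of shares was -0.16 for complex II and 0.09 for complex V with it, and -0.32 and 0.14 without it. For complex IV it was 0.02 with it and -0.045 without it, so that its direction turned. The ratio for complex II in EuMyc Max KO against EuMyc was 0.18 with it and 0.34 without it.

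Genes around the complexes, from lists drawn up apart from the members, moved less evenly. Of 48 tested assembly factors, 36 rose and 2 fell in EuMyc against WT (median log2 fold change 0.47), against 36.7% higher and 34.9% lower of all tested genes. Of the same 48, 34 fell and 3 rose in EuMyc Max KO against EuMyc (median -0.41), against 36.1% lower and 37.6% higher of all tested genes. In Max KO against WT 3 rose and 1 fell, against 7.27% and 7.74% of all tested genes, and in EuMyc Max KO against WT 3 rose and 1 fell, against 17.0% and 10.8%. None of these last 4 counts stood above the share over all genes. Ecsit, an assembly factor of complex I, stood at 68.7 ± 1.27 CPM in EuMyc and 27.7 ± 3.54 in WT (SD, n = 3 each; log2 fold change 1.31, SE 0.0957, edgeR adjusted p = 5.93e-08). Cmc2, a factor of complex IV, stood at 28.0 ± 4.00 CPM in EuMyc and 7.17 ± 0.552 in WT (SD, n = 3 each; log2 fold change 1.96, SE 0.213, edgeR adjusted p = 2.47e-06). Of the other assembly factors with the smallest p, Ndufaf4 (0.70 on the log2 scale), Ndufaf6 (1.01), Ndufaf7 (0.69), Bcs1l (0.71), Uqcc1 (0.37), Lyrm7 (1.31), Cox17 (0.99), Lrpprc (0.57), Cox10 (0.91), Tmem70 (0.71), Atpaf1 (0.31), Atpaf2 (0.70), Sdhaf2 (0.14) and Sdhaf3 (0.56) rose in EuMyc against WT, and Sdhaf1 fell (-0.45). Uqcc2, which helps build complex III, had 28.3, 28.2 and 28.9 CPM in EuMyc Max KO and 31.2, 37.1 and 31.3 CPM in EuMyc. In Max KO Uqcc2 had 29.5, 32.9 and 31.0 CPM, against 19.4, 10.6 and 14.4 CPM in WT. Its WT libraries were the lowest 3 of the 12, and it rose both in EuMyc (log2 fold change 1.17, SE 0.162, edgeR adjusted p = 3.04e-05) and in Max KO (log2 fold change 1.07, SE 0.162, edgeR adjusted p = 0.00167) against WT, in every fit that leaves out a library.

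Of 13 coenzyme Q genes, 6 rose and 4 fell in EuMyc against WT, with a median of 0.15. These counts lay near the shares over all tested genes, 36.7% higher and 34.9% lower. Coq7, a hydroxylase of the pathway, had 7.95, 9.26 and 8.06 CPM in EuMyc Max KO and 39.7, 26.6 and 36.3 CPM in EuMyc. In Max KO Coq7 had 6.32, 5.497 and 5.09 CPM, against 8.08, 4.49 and 5.78 CPM in WT (log2 fold change 2.48, SE 0.204, edgeR adjusted p = 1.84e-07 for EuMyc against WT). Pdss1 (1.82 on the log2 scale) and Coq4 (0.86) also rose. Adck3, a kinase-like protein also named Coq8a, went the other way, with 95.8, 105 and 108 CPM in EuMyc Max KO and 29.3, 26.5 and 32.3 CPM in EuMyc. In Max KO Adck3 had 119.9, 113 and 142 CPM, against 87.3, 79.7 and 79.5 CPM in WT. It fell in EuMyc (log2 fold change -1.48, SE 0.0960, edgeR adjusted p = 2.04e-08) and rose in Max KO (log2 fold change 0.61, SE 0.0921, edgeR adjusted p = 0.00152), both against WT. Of 19 tested regulators of mitochondrial genes 12 rose and 3 fell in EuMyc against WT (median 0.33), against the same 36.7% and 34.9% of all tested genes. Among them Gabpa, an ETS factor, stood at 151 ± 10.02 CPM in EuMyc and 103 ± 3.56 in WT, and Peo1, the helicase of mitochondrial DNA, at 76.9 ± 3.27 CPM in EuMyc and 30.8 ± 0.715 in WT (SD, n = 3 each). Pprc1 (0.46) and Ssbp1 (0.50) rose as well. Of 7 carriers 4 rose and 1 fell, against the same shares over all genes, among those that rose Slc25a4 (1.12) and Slc25a3 (0.61). Slc25a5, the adenine nucleotide carrier of dividing cells, had 378, 377 and 364 CPM in EuMyc Max KO and 839, 936 and 947 CPM in EuMyc. In Max KO Slc25a5 had 294, 297 and 301 CPM, against 419, 325 and 373 CPM in WT (log2 fold change 1.29, SE 0.0840, edgeR adjusted p = 2.23e-08 for EuMyc against WT). Of 14 other genes of the pathway 13 rose and 1 fell, against the same shares, among those that rose Etfa (1.03) and Hspe1 (1.16). Ndufab1, the acyl carrier protein that is also part of complex I and lies outside the symbol rule, stood at 22.9 ± 1.59 CPM in EuMyc Max KO, 59.2 ± 2.75 in EuMyc, 16.7 ± 0.197 in Max KO and 20.5 ± 2.20 in WT (SD, n = 3 each; log2 fold change 1.53, SE 0.0865, edgeR adjusted p = 6.06e-09 for EuMyc against WT).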

How the data were processed

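The deposited gene counts of 12 libraries were read as they stand. Per the submitters' processing notes, bcl2fastq 1.8.4, TopHat2 2.1.0 and HTSeq 0.6.1 were used with the mm10 build; which annotation, strand setting or read length was used is not stated there. The counts are raw whole numbers per gene, as deposited by the authors. Reads without a feature (12.5% to 20.3% of a library), mapping to several places (20.3% to 27.9%) or ambiguous (0.748% to 1.45%) were left out.

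One model over all 12 libraries was fitted to 12878 of 24421 genes with edgeR 4.0.16 (R 4.3.3; expression filter, TMM scaling, robust quasi-likelihood fit, 8 residual degrees of freedom, common biological coefficient of variation 13.7%), with 6 contrasts each adjusted by the Benjamini-Hochberg method. CPM used TMM-scaled totals, and SE is the size of the log2 fold change divided by the square root of F. With 3 mice a group an exact permutation test cannot go below 0.1, so no such test is given. Precision is limited by 3 mice a group, and libraries of a group differed by more than counting noise. Coordinates are from GENCODE vM21 on mm10, and lengths are those of principal transcripts, a definition chosen after union lengths were seen. Promoters are from RefSeq. The members and lists were chosen with earlier results of these data known.

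Any member may be named. Library values are given by rule for the members with the highest and lowest log2 fold change of each complex in EuMyc against WT, Max KO against WT and EuMyc Max KO against EuMyc (mean of at least 5 CPM), Cycs, Cyc1, members with a paralogue, up to 5 members a direction with the smallest interaction p, Max and Myc. Up to 4 genes a list with the smallest p in EuMyc against WT were picked, and some are named by fold change only. Slc25a23 of the carriers and 2010107E04Rik of the other genes were picked too, but their values are not given. Alternatives were DESeq2 1.42.0, other scalings, no expression filter, only the compared libraries, a replicate block, each library left out in turn, and shares without division by length. Complex medians over genes with at least 80% unique 50-base stretches were added after seeing the data. The replicate numbers of the 4 genotypes were not taken to pair the mice. 1 gene of the marker lists is not reported here. The scripts were tested on simulated data.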

Additional observations from a re-analysis of the deposited data

Results flagged for a closer look

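The interaction flagged 6 members whose change with the transgene differed between cells without and with Max by a test of the difference itself, in edgeR's quasi-likelihood fit. The change was smaller without Max for Cycs (-1.18 on the log2 scale), Sdhd (-1.09), Cox6c (-1.02), Atp5g3 (-0.98) and Atp5g1 (-1.05). The interaction was above 0 for Atp5sl (0.31), the sole member called above 0. Atp5sl fell in EuMyc against WT (-0.46), and its decrease with the transgene was smaller without Max. The interaction call of Atp5sl was lost without any of 3 libraries, as given with its value in the report. These are the 5 members with the smallest p and the 1 of opposite direction, and 72 of 80 members were called below 0. Groups of 3 mice are too small for a test of single libraries that stand apart.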

How the results depend on the processing

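Precision is limited by 3 mice a group and, for Ndufs5, Cox6b2 and Cox6a2, by low counts. EuMyc against WT and EuMyc Max KO against EuMyc kept their counts within 1.5 times under every alternative run. With a replicate block, 19 members fell in Max KO against WT, 29 rose in EuMyc Max KO against Max KO, and 3 rose in EuMyc Max KO against WT; the block left 78 higher and 2 lower in EuMyc against WT, 2 higher and 76 lower in EuMyc Max KO against EuMyc, and 1 higher and 72 lower in the interaction. The numbers were not taken to pair the mice, and whether they mark a shared batch was not tested. Same-numbered libraries correlated between -0.12 and 0.34 in their deviations, 4 of 18 pairs over 0.1. Of 12 libraries, 8 correlated best with a library of their own number. The causes of the differences below were not tested.

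In EuMyc Max KO against Max KO 13 members rose with the compared libraries only. In EuMyc Max KO against WT, 3 fell by DESeq2, 2 with RLE factors and 5 with upper-quartile factors. With library totals, medians of complexes I to V were 0.75, 0.63, 1.01, 0.98 and 0.90 in EuMyc against WT, -0.72, -0.54, -0.89, -0.86 and -0.97 in EuMyc Max KO against EuMyc, and -0.57, -0.40, -0.66, -0.71 and -0.74 in the interaction. With upper-quartile factors they were 0.73, 0.61, 0.98, 0.96 and 0.88, then -0.75, -0.57, -0.93, -0.89 and -1.01, then -0.56, -0.39, -0.65, -0.70 and -0.73. All genes shifted by -0.10 and -0.13 in EuMyc against WT under these scalings. Over genes with at least 80% unique stretches, complex V was 1.15 in EuMyc against WT, and the interaction was -0.85 for complex III and -0.95 for complex V.

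Without division by length, log2 ratios of shares in EuMyc against WT were -0.32 for complex II, 0.14 for V and -0.045 for IV, which reversed its 0.02. In EuMyc Max KO against EuMyc they were 0.34 for II, 0.064 for IV and -0.15 for V. For complex V the ratio was 0.039 in EuMyc Max KO against Max KO and -0.0040 in EuMyc Max KO against WT, where complex IV was at 0.019.

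Leaving out each library, the members that fell in Max KO against WT numbered 4 to 31, and those that rose in EuMyc Max KO against Max KO 9 to 33. In EuMyc Max KO against WT 1 to 4 rose and 0 to 4 fell, and 0 to 1 were positive in the interaction. Medians in Max KO against WT ran from -0.29 to -0.17 for complex III, -0.27 to -0.13 for IV and -0.30 to -0.20 for V. In the interaction they ran from -0.74 to -0.60 for I, -0.82 to -0.69 for III and -0.87 to -0.72 for IV. Complex III in EuMyc Max KO against WT ran from -0.055, without WT replicate 2, to 0.091.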
